A study of Mus musculus with 6 samples.

Results

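Gsx2, Dlx1, Dlx2, Dlx5, Dlx6, Sp8, Sp9 and Pax6 are transcription factors of the lineage that makes interneurons of the olfactory bulb. These 8 genes were chosen by name, with earlier results of these data known, and all 8 were found among the 32564 genes of the deposited files. All 8 also passed the filter on low counts. RNA sequencing was done on cells taken from the subependymal zone, the stem cell niche beside the lateral ventricles of the adult mouse brain. The antagomir group holds 3 libraries and the vehicle group 3. Antagomir mice received an antagomir against miR-204 into the ventricles, and vehicle mice received artificial cerebrospinal fluid. Antagomirs are chemically stabilised antisense oligonucleotides that pair with a microRNA and stop its action.

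The mice of both groups carried the gfap:GFP transgene on the strain written C56BL/6J in the labels. They were 3 months old, and cells were collected 3 days after the injection by flow sorting aimed at quiescent neural stem cells. The promoter of the transgene is that of a gene which astrocytes use as well as stem cells. No control oligonucleotide is named, so the effect of blocking miR-204 and the effect of an injected oligonucleotide cannot be told apart. Whether a replicate is an animal or a pool is not stated, so p-values measure the spread between these libraries, which may be technical.

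In the adult niche, stem cells give rise to dividing intermediate cells and then to neuroblasts, the immature neurons that migrate to the olfactory bulb and become interneurons there. Gsx2 is a homeobox factor of ventral and lateral forebrain progenitors, and Pax6 is a paired-box factor of dorsal progenitors and of neuroblasts bound for dopaminergic fates. Dlx1, Dlx2, Dlx5 and Dlx6 are distal-less homeobox factors that direct GABAergic interneuron differentiation and migration, with Dlx1 and Dlx2 acting earlier than Dlx5 and Dlx6. Sp8 and Sp9 are zinc finger factors of neuroblasts and interneurons.

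In GRCm38, Dlx1 (ENSMUSG00000041911.3) lies on chromosome 2 from 71528113 to 71533981 on the plus strand. Dlx2 (ENSMUSG00000023391.8) lies beside it from 71543408 to 71546754 on the minus strand, with 9426 bases between the genes. Sp9 (ENSMUSG00000068859.5) and Pax6 (ENSMUSG00000027168.21) share that chromosome, at 73271925 to 73284706 and at 105668900 to 105697364. Dlx6 (ENSMUSG00000029754.13) and Dlx5 (ENSMUSG00000029755.10) form a second pair on chromosome 6, at 6863334 to 6868568 and 6877805 to 6882085, with 9236 bases between them. Gsx2 (ENSMUSG00000035946.7) lies on chromosome 5 from 75075601 to 75077893, and Sp8 (ENSMUSG00000048562.7) on chromosome 12 from 118846329 to 118852576.

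The antagomir is directed at miR-204, so its main mature form and the only strong match to its seed among the 8 genes are shown. The first line is mmu-miR-204-5p (RefSeq, GRCm38.p6, chr19:22750610-22750631, plus strand), with its seed, bases 2 to 8, in capitals. The second line is from the 3′ UTR of Dlx1 (GRCm38, chr2:71533326-71533351, plus strand, GENCODE transcript ENSMUST00000037119.3), with the match in capitals.
miR-204-5p: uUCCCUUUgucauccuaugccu
Dlx1 3′ UTR: ctgaaatgcagAAAGGGAAaacagga
The Dlx1 match is an 8mer, that is, it pairs with the whole seed and is followed by an A. It spans bases 819 to 826 of a 3′ UTR of 1462 bases. The searched 3′ UTRs of Dlx2, Dlx5, Dlx6, Sp8, Gsx2 and Pax6, 1 transcript a gene, held none of the 8mer, 7mer or 6mer matches, and that of Sp9 held 1 6mer match. An 8mer or 7mer-m8 match was present in 13.6% of the 14350 genes searched in the same way, so such a match is common. It is a match of letters and no measure of binding.

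Library totals were 14866453 to 19694409 estimated counts, and 3 counts corresponded to 0.152 to 0.201 CPM (CPM being counts relative to the scaled library total). Antagomir replicate 1 and vehicle replicate 1 stood apart from the other libraries of their groups. The summed level of 18 neuroblast markers was 4561, 2142 and 2073 CPM in antagomir replicates 1, 2 and 3, against 3112, 1541 and 1491 CPM in vehicle replicates 1, 2 and 3. The summed level of 10 markers of dividing cells was 593, 464 and 525 CPM in the antagomir libraries, against 526, 178 and 190.1 CPM in the vehicle libraries. Vehicle replicate 1 also held 1974 CPM of 10 microglia markers, against 102 to 269 CPM in the antagomir libraries and 134 to 237 CPM in the other vehicle libraries. The sort was aimed at stem cells, yet 10 oligodendrocyte markers summed to 15470 to 22030 CPM in antagomir libraries and 9701 to 20430 CPM in vehicle libraries. The 12 markers of astrocytes and stem cells reached 8569 to 11740 CPM in antagomir libraries and 11300 to 12160 CPM in vehicle libraries. In sorted bulk cells, fewer cells of a type and less RNA per cell cannot be told apart.

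All 8 factors had positive fold changes of antagomir over vehicle, and none of them passed the test. With p-values adjusted by Benjamini-Hochberg, the quasi-likelihood test of edgeR called 0 of the 8 members, beside 0 (0%) of the 15012 genes tested. At an unadjusted p under 0.05 there were 0 of the 8 members and 616 of all genes, and DESeq2 and limma-voom also called 0 members. The median log2 fold change was 0.85 over the members and -0.006 over all genes tested, of which 7372 were positive and 7640 negative. The groups overlapped for all 8 members, while they did not overlap for 10.5% of all genes tested. The standard errors below are those of log2 fold changes, taken from the test statistic.

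**Figure D1:**
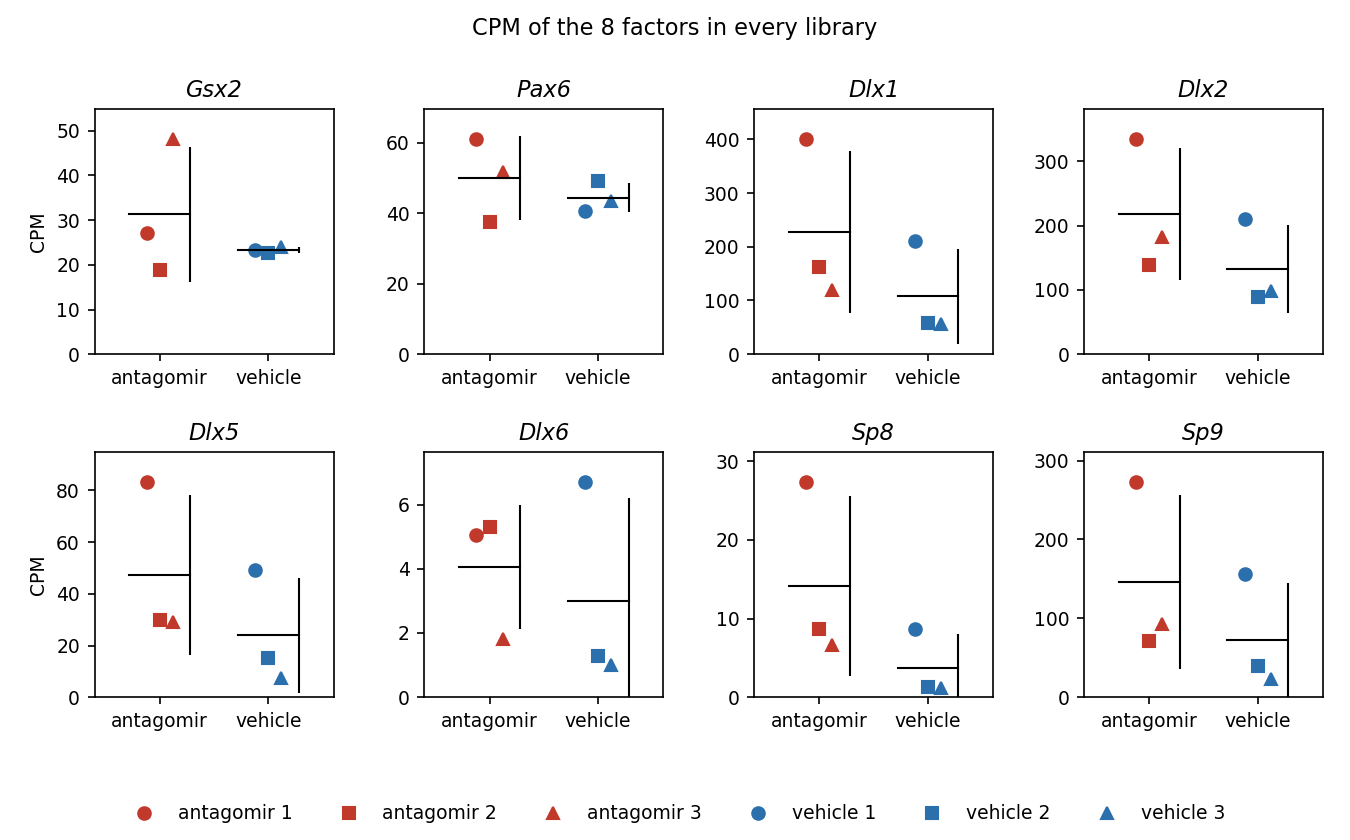
CPM (vertical axes from 0, 1 scale a panel) of each factor in antagomir libraries (left, red) and vehicle libraries (right, blue), with replicate numbers as symbols, the group mean as a bar and ± SD as a line drawn no lower than 0. Replicate 1 is the highest library of its group for Dlx1, Dlx2, Dlx5, Sp8 and Sp9, and the 3 vehicle libraries of Gsx2 sit between 22.6 and 24.0 CPM.

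Gsx2 and Pax6, the progenitor factors, varied least among the vehicle libraries. Gsx2 measured 27.1, 18.7 and 48.1 CPM in antagomir replicates 1, 2 and 3, against 23.3, 22.6 and 24.0 CPM in vehicle replicates 1, 2 and 3. Only antagomir replicate 3 was far from the rest, and antagomir replicate 2 lay below every vehicle library. The Gsx2 log2 fold change was 0.43 ± 0.33 (SE, edgeR adjusted p = 0.949), and it was -0.01 without antagomir replicate 3.

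Pax6 measured 61.0, 37.4 and 51.8 CPM in the antagomir libraries, against 40.7, 49.0 and 43.5 CPM in the vehicle libraries. The highest library was 1.63 times the lowest, the narrowest range of the 8 members. Its log2 fold change was 0.17 ± 0.21 (SE, edgeR adjusted p = 0.953), 0.006 without antagomir replicate 1 and 0.35 without antagomir replicate 2.

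Pax6 occurs with or without exon 5a, an alternative exon of 42 bases that adds 14 amino acids to the paired domain and changes the DNA sequences the protein prefers. In GRCm38 it lies on chromosome 2 from 105684751 to 105684792, and 5 annotated coding transcripts hold it while 5 skip it. Transcripts with the exon took 41.5, 42.8 and 39.0% of the estimated counts of these coding transcripts in the antagomir libraries, against 36.4, 42.8 and 34.6% in the vehicle libraries. The ranges of the groups overlapped, and kallisto divides reads among such similar transcripts by a model, so these shares are estimates.

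The distal-less genes were highest in replicate 1 of each group, except that antagomir replicate 2 was slightly above antagomir replicate 1 for Dlx6. Dlx2 measured 334, 138 and 182 CPM in antagomir replicates 1, 2 and 3, against 211, 88.3 and 98.6 CPM in vehicle replicates 1, 2 and 3. Vehicle replicate 1 lay above antagomir replicates 2 and 3, and the other vehicle libraries lay below all 3 antagomir libraries. The log2 fold change of Dlx2 was 0.72 ± 0.41 (SE, edgeR adjusted p = 0.949), 0.27 without antagomir replicate 1 and 1.24 without vehicle replicate 1.

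Dlx1, the partner of Dlx2 in its gene pair and the one with the seed match printed above, measured 400.2, 163 and 119 CPM in the antagomir libraries, against 210.2, 57.3 and 55.6 CPM in the vehicle libraries. As for Dlx2, antagomir replicate 1 and then vehicle replicate 1 were the highest libraries, and vehicle replicates 2 and 3 were the lowest. The log2 fold change was 1.08 ± 0.61 (SE, edgeR adjusted p = 0.949), 0.39 without antagomir replicate 1 and 2.03 without vehicle replicate 1.

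Transcripts annotated with a retained intron took 37.3, 40.6 and 44.7% of the Dlx1 estimated counts in the antagomir libraries, against 32.5, 31.4 and 64.1% in the vehicle libraries. The library kit does not mark strand, and the antisense gene Dlx1as overlaps Dlx1, so reads of both cannot be told apart. Over the coding transcripts of Dlx1 alone the level was 251, 96.6 and 65.9 CPM in the antagomir libraries, against 139.5, 39.4 and 19.96 CPM in the vehicle libraries. The groups overlapped in the coding transcripts too, through vehicle replicate 1. Dlx1as and Dlx6os1, the antisense gene that overlaps Dlx6, had 0 transcripts in the deposited files and could not be analysed.

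Dlx5, which acts in later differentiation, measured 83.2, 29.9 and 29.0 CPM in antagomir replicates 1, 2 and 3, against 49.3, 15.2 and 7.36 CPM in vehicle replicates 1, 2 and 3. The log2 fold change was 0.98 ± 0.69 (SE, edgeR adjusted p = 0.949), with overlap again through vehicle replicate 1. Without antagomir replicate 1 it was 0.30, and without vehicle replicate 1 it was 2.09. Dlx5 and Dlx6 are neighbours and are often expressed together. Dlx6 measured 5.05, 5.29 and 1.82 CPM in the antagomir libraries, against 6.69, 1.28 and 1.02 CPM in the vehicle libraries. The antisense gene Dlx6os1 overlaps Dlx6, and without strand the reads of both cannot be told apart. Dlx6 rested on 20 to 119 counts a library, and vehicle replicate 1 was its highest library. Its log2 fold change was 0.43 ± 0.83 (SE, edgeR adjusted p = 0.963), 0.03 without vehicle replicate 3 and 1.82 without vehicle replicate 1.

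Sp8 had the largest fold change of the 8 members and the widest range between libraries, 24.5 times. It measured 27.3, 8.63 and 6.58 CPM in antagomir replicates 1, 2 and 3, against 8.66, 1.35 and 1.12 CPM in vehicle replicates 1, 2 and 3. Vehicle replicates 2 and 3 had 22 counts each, and vehicle replicate 1 lay within the antagomir range, just above antagomir replicate 2. The log2 fold change was 1.93 ± 0.89 (SE, unadjusted p = 0.0604, edgeR adjusted p = 0.949). It was 1.03 without antagomir replicate 1 and 3.54 without vehicle replicate 1.

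Sp9, the relative of Sp8, measured 272.5, 71.4 and 92.9 CPM in the antagomir libraries, against 156, 39.1 and 22.8 CPM in the vehicle libraries. Vehicle replicate 1 was its second highest library, and the groups overlapped through it. The log2 fold change was 1.01 ± 0.74 (SE, edgeR adjusted p = 0.949), 0.18 without antagomir replicate 1 and 2.25 without vehicle replicate 1.

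**Figure D2:**
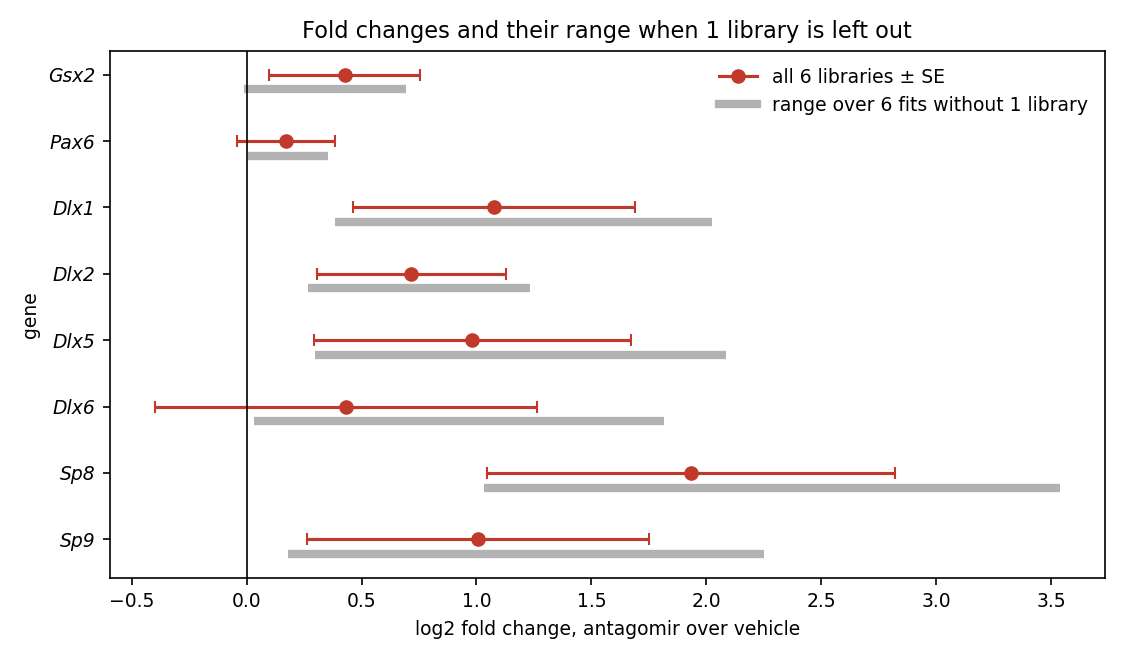
Log2 fold change of antagomir over vehicle (horizontal axis) for each factor (vertical axis), as a point with its SE from all 6 libraries, and as a grey bar the range over the 6 fits that each leave out 1 library. Sp8 lies highest at 1.93 with a range of 1.03 to 3.54, and the bars of Gsx2 and Pax6 reach -0.01 and 0.006.

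Leaving out vehicle replicate 1 separated the groups for 6 members, Dlx1, Dlx2, Dlx5, Dlx6, Sp8 and Sp9, all higher with antagomir. Under the same omission every antagomir library was above every vehicle library for 14.1% of all genes tested. Without both antagomir replicate 1 and vehicle replicate 1, the pair with the most neuroblast marker RNA, the same 6 members were separated and all higher, beside 20.1% of all genes. Without antagomir replicate 2 the separated members were Gsx2 and Pax6, both higher, beside 10.1% of all genes. Still, edgeR called 0 members in each of these fits, and the adjusted p of Dlx1 without both first replicates was 0.0836, the lowest for any member in any fit tried. The omission of that pair was chosen after the libraries had been seen to stand apart.

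Set side by side per transcript length, in the deposited TPM (a share of all transcripts, corrected for transcript length), the 8 factors ranked as follows by their mean over all 6 libraries. Dlx2 averaged 166 ± 77.1 TPM in antagomir libraries and 102 ± 43.6 TPM in vehicle libraries (SD, n = 3 each), and Dlx1 averaged 166 ± 115 TPM in antagomir libraries and 72.2 ± 56.7 TPM in vehicle libraries. In these sums over all transcripts of a gene, Dlx2 and its partner were the most abundant of the factors. The Dlx1 sum includes the retained-intron transcripts, which took 31.4 to 64.1% of its estimated counts in a library. A ranking on coding transcripts alone was not made. Dlx5 averaged 63.6 ± 41.6 TPM in antagomir libraries and 30.8 ± 28.4 TPM in vehicle libraries. For Sp9 the values were 56.4 ± 42.8 TPM in antagomir libraries and 26.7 ± 26.5 TPM in vehicle libraries. Both spread so widely that they overlapped the steadier progenitor factors. Pax6 averaged 35.9 ± 7.10 TPM in antagomir libraries and 29.9 ± 3.54 TPM in vehicle libraries, and Gsx2 averaged 35.1 ± 17 TPM in antagomir libraries and 24.9 ± 0.284 TPM in vehicle libraries. Dlx6 averaged 6.16 ± 3.83 TPM in antagomir libraries and 4.62 ± 6.47 TPM in vehicle libraries. Sp8 was lowest, at 5.52 ± 4.48 TPM in antagomir libraries and 1.37 ± 1.57 TPM in vehicle libraries. Within a group, the means of neighbours in this order differed by less than the larger of their SDs, with 2 exceptions: the step from Gsx2 down to Dlx6 in both groups, and that from Pax6 to Gsx2 in the vehicle libraries.

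In TPM summed per gene, genes of one cluster or family did not keep a fixed proportion. The Dlx1 values include its retained-intron transcripts, whose share varied between libraries. Dlx6 had as few as 20 counts a library, and Sp8 had 22 in vehicle replicates 2 and 3. The ratio of Dlx1 to Dlx2 in TPM was 1.18, 1.09 and 0.603 in antagomir replicates 1, 2 and 3, against 0.902, 0.495 and 0.529 in vehicle replicates 1, 2 and 3. The ratio of Sp8 to Sp9 was 0.101, 0.121 and 0.0710 in the antagomir libraries, against 0.0557, 0.0346 and 0.0494 in the vehicle libraries, so the 3 antagomir ratios were all above the vehicle ratios. This ratio was picked after the values were known and was given no test. How often other gene pairs separate in this way was not counted. The ratio of Dlx6 to Dlx5 was 0.0749, 0.209 and 0.0442 in the antagomir libraries, against 0.192, 0.0504 and 0.0821 in the vehicle libraries. The ratio of Gsx2 to Dlx2 was 0.121, 0.199 and 0.385 in the antagomir libraries, against 0.162, 0.318 and 0.331 in the vehicle libraries, lowest where neuroblast markers were highest.

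**Figure D3:**
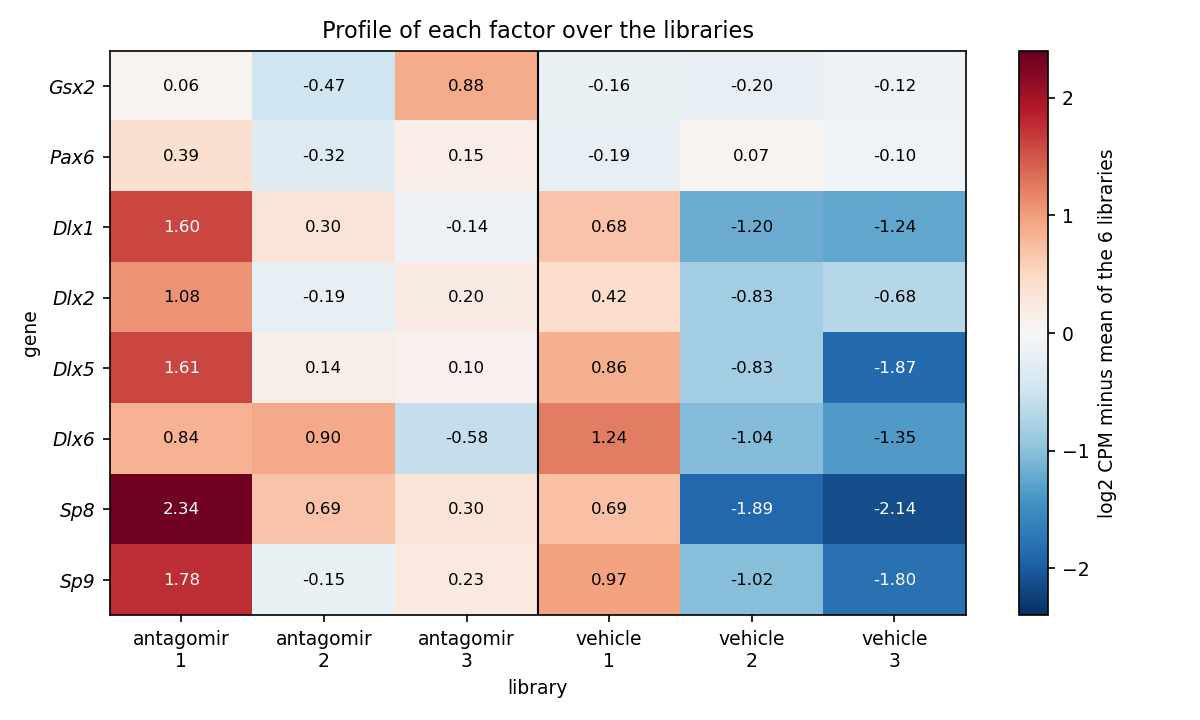
Centred profile of each factor (rows) over the 6 libraries (columns, antagomir left of vehicle): log2 CPM with a prior count of 2, minus the mean of the 6 libraries. Sp8 runs from 2.34 in antagomir replicate 1 to -2.14 in vehicle replicate 3, while Pax6 stays between -0.32 and 0.39.

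Over the 6 libraries the profiles of Dlx1, Dlx2, Dlx5, Sp8 and Sp9 shared their 2 highest and 2 lowest libraries and differed mainly in how far these lay apart. Likeness was measured as the root mean square difference between centred log2 CPM profiles, where 0 is an identical profile, so it counts the size of the swings as well as their order. Dlx5 and Sp9 were the most alike members at 0.17, followed by Dlx1 and Dlx5 at 0.33, Gsx2 and Pax6 at 0.35 and Dlx1 and Sp9 at 0.37. Sp8 and Gsx2 were the least alike, at 1.56. These distances describe 6 libraries and are not tests.

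The genes with the profile closest to Dlx1 were Gad2 (0.15), Mfng (0.21), Gad1 (0.21), Cadps (0.22) and Tiam2 (0.23). Gad1 and Gad2 encode the enzymes that make GABA. Among those closest to Dlx2 were Sox4 (0.075), Marcksl1 (0.11), Timeless (0.12) and Ccng2 (0.12), of which Sox4 is a transcription factor of immature neurons. Dlx5 and Sp9 had Sema6c, Bcl11a and Crmp1 in common among their 5 nearest genes, at 0.17 to 0.19, along with Elavl4 for Dlx5, Basp1 for Sp9 and each other.

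Nearest to Dlx6 were Chaf1b (0.23), Hist1h2ap (0.34), Dtl (0.36), Epha7 (0.36) and Palb2 (0.36). Chaf1b, Hist1h2ap and Dtl serve DNA replication and chromatin assembly. Sp8 had no near neighbour, the closest being Ccdc120 (0.32), Slc35f4 (0.35), Vstm5 (0.41), Tcfl5 (0.42) and Zfp57 (0.46). Of these, Slc35f4, Vstm5 and Tcfl5 were below the level of 3 counts in vehicle replicates 2 and 3. For Gsx2 they were Cct6b (0.098), Egln3 (0.17), Phf13 (0.17), Zfp418 (0.18) and Notum (0.19), and for Pax6 they were Zcchc24 (0.052), Dexi (0.054), Fbxo2 (0.064), Atf2 (0.074) and Exosc5 (0.075). A flat profile such as that of Pax6 lies near many others.

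**Figure D4:**
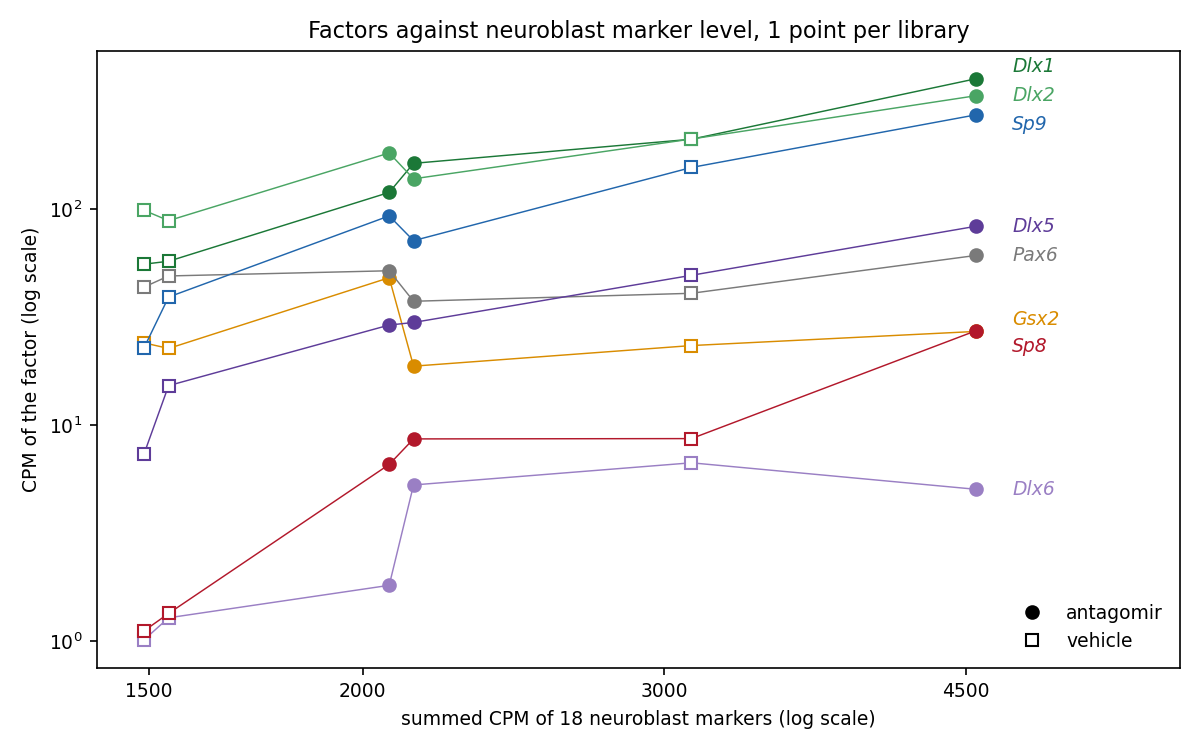
CPM of each factor (vertical axis, log scale) against the summed CPM of 18 neuroblast markers (horizontal axis, log scale), 1 point a library, filled circles for antagomir and open squares for vehicle, joined in order of the horizontal axis. Dlx2 is at 334 CPM in the library with the highest neuroblast level and at 98.6 CPM in the one with the lowest, while Pax6 and Gsx2 do not climb in step with it.

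The libraries with the most neuroblast marker RNA, antagomir replicate 1 and vehicle replicate 1, were also the 2 highest for Dlx1, Dlx2, Dlx5, Sp8 and Sp9. The part of neuroblast markers in the differences between groups was not tested beyond the ratio that follows. For each library, the log2 level of a factor (CPM plus 0.5) was set against the log2 summed level of the 18 neuroblast markers, which exclude the 8 members. The sum holds large and steady genes beside variable ones: Ncam1 measured 579 to 886 CPM over the 6 libraries and Cd24a 267 to 377 CPM, while the highest library was 15.8 times the lowest for Dcx and 85.8 times for Igfbpl1. The sum therefore varies less than many of its markers. This relative level of Dlx2 was -3.77, -3.95 and -3.51 in antagomir replicates 1, 2 and 3, against -3.88, -4.12 and -3.91 in vehicle replicates 1, 2 and 3. It varied by 0.61 over all libraries, the least of any member, and by 1.95 for Gsx2.

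The relative level of Sp8 was -7.36, -7.87 and -8.19 in the antagomir libraries, against -8.41, -9.71 and -9.85 in the vehicle libraries, so the groups did not overlap. The difference of means was 1.51 on the log2 scale (exact two-sided permutation p = 0.1, the smallest this design allows). Every antagomir library was above every vehicle library in the same measure for 0.440% of all genes tested. The median difference over all genes tested was -0.51, since the neuroblast sum itself was higher in the antagomir group. For Dlx1 the difference was 0.67, for Sp9 0.72, for Dlx5 0.70, for Dlx2 0.23 and for Dlx6 0.14, with exact permutation p of 0.2 to 0.6. For Gsx2 and Pax6 it was -0.19 and -0.35, with exact permutation p of 0.9 and 0.6. These 8 differences were all that were compared in this way, and with 3 libraries a group none could reach 0.05. With Dcx, Sox11 and Stmn2 as the only markers, the differences were 1.03 for Sp8, 0.19 for Dlx1, 0.24 for Sp9 and 0.22 for Dlx5, and the median over all genes tested was -0.99. Without vehicle replicate 3 and with all 18 markers, they were 0.28 for Dlx5 and 0.32 for Sp9.

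The members whose groups were separate in this measure depended on the libraries used. Without antagomir replicate 2 they were Dlx2 and Sp8, both higher, beside 0.633% of all genes. Without antagomir replicate 3 they were Dlx1 and Sp8, both higher, beside 0.600%. Leaving out vehicle replicate 1 separated Dlx1, Dlx5, Sp8 and Sp9 as higher, beside 1.21% of all genes, and Pax6 as lower, beside 64.4%. With antagomir replicate 1 left out as well, the same 5 members were separated in the same directions, beside 3.82% higher and 64.6% lower. These shares are over all genes tested, whose median difference in this measure was -0.51 with all libraries. Variable markers inside the sum, such as Dcx and Igfbpl1, were not counted in this way. The shares therefore do not show that such a separation is particular to the members.

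Among genes that act before or beside the 8 factors, 13 of 15 upstream and regional identity factors were tested, 6 with positive and 7 with negative fold changes and a median log2 fold change of -0.03. None of these 13 passed the edgeR test, and 0 had an unadjusted p under 0.05. Among the smallest p values of this list were those of Zic1, Lhx2 and Gli2, with log2 fold changes of -1.46, -0.25 and 0.22. Zic1 is a zinc finger factor of septal and other medial progenitors. It averaged 0.744 ± 0.235 CPM in antagomir libraries and 2.06 ± 1.09 CPM in vehicle libraries (SD, n = 3 each), on 9 to 54 counts a library. Zic1 was the only one of the 13 tested genes whose groups did not overlap, beside 10.5% of all genes tested.

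Factors of the excitatory lineage of the pallium, the dorsal forebrain, were also measured. Of 9 such genes 4 were tested, and 5 (Neurog1, Neurog2, Neurod1, Neurod2 and Neurod6) were below the filter on low counts. The list summed to 22.1 to 24.3 CPM in antagomir libraries and 26.1 to 31.7 CPM in vehicle libraries. Most of this sum was Emx2, at 17.4 to 19.1 CPM in antagomir libraries and 20.8 to 26.6 CPM in vehicle libraries. No gene of the list passed the edgeR test, and 0 had an unadjusted p under 0.05. Emx2, a homeobox factor of dorsal progenitors, had a log2 fold change of -0.40 (edgeR adjusted p = 0.949). Its groups did not overlap, which was so for 10.5% of all genes tested. The log2 fold changes of Eomes, Tbr1 and Emx1 were 0.85, -0.21 and 0.045, at levels of a few CPM or less.

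Of 20 partners, targets and later interneuron genes, 18 were in the files and 17 were tested, 10 positive and 7 negative, with a median log2 fold change of 0.19 and none past the edgeR test. Calb2 was the 1 gene of these with an unadjusted p under 0.05. Gad1 measured 116, 56.4 and 32.4 CPM in antagomir replicates 1, 2 and 3, against 73.9, 24.7 and 19.0 CPM in vehicle replicates 1, 2 and 3, and Gad2 followed the same order of libraries. Calb2, the calretinin gene of a class of olfactory interneurons, averaged 3.85 ± 0.744 CPM in antagomir libraries and 1.44 ± 0.711 CPM in vehicle libraries (SD, n = 3 each), and Etv1, a factor of dopaminergic interneurons, had a log2 fold change of 0.36. For Calb2 and Etv1 every antagomir library was above every vehicle library, and neither passed (edgeR adjusted p = 0.949). These were the 2 of the 17 whose groups did not overlap, beside 10.5% of all genes tested. Zfhx3 had a log2 fold change of -0.77. Meis2, a cofactor of Pax6 and Dlx factors, had a log2 fold change of 0.23 ± 0.34 (SE, edgeR adjusted p = 0.956).

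Markers of other cells that use these factors were measured beside them. Of 20 neuroblast markers 19 were tested, Sp8 among them, all 19 with positive fold changes, 0 called by edgeR and 0 at an unadjusted p under 0.05. Their median log2 fold change was 0.76. Over all 15012 genes tested, 616 had an unadjusted edgeR p under 0.05. Dcx, the microtubule protein gene that marks neuroblasts, had a log2 fold change of 1.10 ± 0.87 (SE). All 10 markers of dividing cells were positive, with a median of 0.95, 0 called by edgeR and 4 at an unadjusted p under 0.05, and Mki67 had a log2 fold change of 0.28. Striatal and mature neurons also express Dlx and Sp genes at some stages, and their 15 markers had a median of 0.19, with 0 called and 1 at an unadjusted p under 0.05. The summed level of those 15 was 691 to 1122 CPM in antagomir libraries and 692 to 883 CPM in vehicle libraries, and Ppp1r1b, a gene of striatal projection neurons, averaged 434 ± 118 CPM in antagomir libraries and 381 ± 16.7 CPM in vehicle libraries. The 12 markers of astrocytes and stem cells had a median of -0.16, with 0 called and 2 at an unadjusted p under 0.05. Gfap, the gene whose promoter drives the transgene, was at 237 ± 57.1 CPM in antagomir libraries and 370.4 ± 184 CPM in vehicle libraries. The part of each of these markers in the levels of the 8 factors was not tested.

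Promoters of 3 members are shown because antagomir replicate 1 and vehicle replicate 1 were the 2 highest libraries for Dlx2 and Sp9 but not for Gsx2. Each line gives 300 bases from RefSeq (GRCm38.p6), from 250 bases before to 50 after a start site, with the GC box GGGCGG on either strand in capitals. They are chr2:71546705-71547004 on the minus strand for Dlx2, chr2:73271676-73271975 on the plus strand for Sp9 and chr5:75075351-75075650 on the plus strand for Gsx2.
Dlx2: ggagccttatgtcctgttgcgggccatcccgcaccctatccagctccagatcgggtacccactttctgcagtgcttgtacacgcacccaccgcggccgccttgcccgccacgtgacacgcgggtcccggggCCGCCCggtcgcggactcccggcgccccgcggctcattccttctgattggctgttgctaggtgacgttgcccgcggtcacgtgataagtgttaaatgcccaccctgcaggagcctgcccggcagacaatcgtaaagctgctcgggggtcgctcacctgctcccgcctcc
Sp9: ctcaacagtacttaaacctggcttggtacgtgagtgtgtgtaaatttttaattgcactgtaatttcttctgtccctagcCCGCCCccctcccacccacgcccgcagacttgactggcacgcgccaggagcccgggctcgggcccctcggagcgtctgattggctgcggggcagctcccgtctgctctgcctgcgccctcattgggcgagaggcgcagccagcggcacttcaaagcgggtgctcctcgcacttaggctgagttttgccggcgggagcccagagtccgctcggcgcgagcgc
Gsx2: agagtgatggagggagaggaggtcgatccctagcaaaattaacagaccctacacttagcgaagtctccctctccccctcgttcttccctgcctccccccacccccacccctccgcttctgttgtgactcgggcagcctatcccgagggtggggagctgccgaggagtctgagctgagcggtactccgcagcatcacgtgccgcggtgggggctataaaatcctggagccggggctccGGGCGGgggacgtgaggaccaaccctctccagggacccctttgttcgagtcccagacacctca
Each of these held 1 GC box, the sequence that factors of the Sp family bind. At least 1 was held by 35.7% of the 32851 promoters of the same length. None of the 3 shown held TAATTA, the core sequence bound by many homeodomain proteins, which 5.29% of all promoters held. Other members differed: an Sp8 promoter that is not shown held TAATTA, and neither Pax6 promoter held a GC box. The GC content was 66.3% for Dlx2, 63.7% for Sp9 and 63.0% for Gsx2, against a median of 52.7%.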

How the data were processed

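Per the labels' protocols, PicoPure-isolated RNA was amplified with a SMART-Seq v4 kit, whose cDNA keeps no record of strand, and read as 100 bp pairs. Groups come from the titles and the treatment group, since the injection protocol names the antagomir for every sample. The deposited estimated counts (expected counts) and TPM are kallisto's values per transcript, per the file headers. The submitters' processing notes also name sleuth and mm10. Versions of these tools are not given in the sources used here. Of 99567 transcripts, 98294 matched GENCODE M21 (GRCm38) by identifier without version number. Counts and TPM were summed per gene, and counts were rounded. Genes were tested across the genome with edgeR 4.0.16 (R 4.3.3; TMM scaling, filterByExpr at 10 counts, robust quasi-likelihood fit on group alone), adjusted by Benjamini-Hochberg over 15012 genes at 0.05. DESeq2 1.42.0, limma 3.58.1, other scalings and filters, a replicate block and fits without a library were alternatives. The scripts were checked on data made with known changes. No pair of libraries agreed within sampling noise. The members and lists were chosen with earlier results of these data known. Genes named beyond the members were, in each wider list, up to 4 with the smallest p, a fixed set (among them Dcx, Mki67, Gad1, Gad2, Meis2, Ppp1r1b and Gfap), and for each member the 5 genes nearest in profile, leaving out pseudogenes and unnamed genes. Some genes this rule names are not reported here. The SE and SD values include the spread between libraries, while the floors cover counting error only.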

Additional observations from a re-analysis of the deposited data

How the results depend on the processing

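In every alternative tried 0 of the 8 members were called. edgeR and limma-voom also called 0 genes in all, while DESeq2 called 5 of the 20746 genes it adjusted, none of them a member. Without 1 library, the number of members whose groups do not overlap in CPM ranged from 0 to 6. The 6, without vehicle replicate 1, were all higher, beside 14.1% of all genes tested. For the level relative to neuroblast markers the number ranged from 1 to 5 (1 with all libraries). The 5, also without vehicle replicate 1, were Dlx1, Dlx5, Sp8 and Sp9 as higher, beside 1.21%, and Pax6 as lower, beside 64.4%. Without both antagomir replicate 1 and vehicle replicate 1, an alternative added after seeing the data, these numbers were 6 and 5. The shares of all genes were then 20.1% higher in CPM, and 3.82% higher and 64.6% lower in relative level. The fold change turned negative for Gsx2 without antagomir replicate 3 (-0.01, in a range without 1 library up to 0.69) and for Pax6 without both first replicates (-0.054, against 0.006 to 0.35 without 1 library), and stayed positive for the other members in all fits.

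The relative level turned its sign for Gsx2 without antagomir replicate 1 (0.23) or vehicle replicate 3 (0.016), in a range from -0.75, and for Dlx6 without antagomir replicate 2 (-0.26) or vehicle replicate 3 (-0.085), in a range up to 0.51, or 0.68 without both first replicates. With Dcx, Sox11 and Stmn2 as the only neuroblast markers it turned for Dlx2 (-0.26) and Dlx6 (-0.34), and the differences of Dlx1, Dlx5 and Sp9 shrank by over 1.5 times. That change of markers moves every gene by the same amount, since the same sum is set against each. The median over all genes tested moved from -0.51 to -0.99. The cause of the turns without a library was not tested.

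The replicate numbers were not shown to pair the libraries, since deviations from the group means correlated by 0.20, 0.08 and 0.03 across genes for numbers 1, 2 and 3, and not every library correlated best with its own number. With a replicate block 0 members and 0 genes were called, the log2 fold change of Dlx1 was 1.18 (edgeR adjusted p = 0.21), and 1284 genes had an unadjusted p under 0.05, against 616 without it. Depth limits Dlx6 and Sp8 most, with as few as 20 and 22 counts a library.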
